A study of Homo sapiens with 16 samples.

Results

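Homologous recombination and the Fanconi anaemia pathway repair broken and crosslinked DNA, and 34 of their genes were followed by name in HCT116 cells with and without p53. The 34 genes were listed by symbol as members of these pathways, and all 34 were found among the 20612 genes of the expression table. All 34 also passed the filter on low values described with the tests. HCT116 is a human colorectal cancer cell line. The study sequenced polyadenylated RNA of a p53-/- HCT116 line and of p53+/+ HCT116 cells after 8 hours with Nutlin-3A (5 µM), with Entinostat (2.5 µM), with both drugs (the combination) or with the vehicle DMSO. Nutlin-3A blocks the binding of MDM2 to p53 and so stabilises p53, and Entinostat inhibits class I histone deacetylases. Each of the 8 groups of genotype and treatment had 2 libraries, which gave 16 in all. The p53-/- and p53+/+ cells were described as isogenic, and the labels do not say how the p53-/- line was derived or whether it is 1 clone. Whether the replicates are separate cultures is likewise not stated, and the p-values measure only the spread between these libraries, which may be technical.

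In homologous recombination a broken chromosome is mended by copying an intact sister chromatid. The MRE11A, RAD50 and NBN complex and RBBP8 (CtIP) trim the broken ends, BRCA1 with BARD1, PALB2 and BRCA2 prepares the trimmed strand to invade the sister chromatid, and helicases such as BLM dissolve the joined molecules afterwards. In the Fanconi anaemia pathway a core complex of FANC proteins and the enzyme UBE2T attach ubiquitin to FANCD2 and FANCI at a crosslink, and the same recombination proteins finish the repair. ATM and ATR are the kinases that signal the damage, through CHEK2 and CHEK1. As background, many of these genes are transcribed mainly in cells that copy their DNA, under E2F factors, and activation of p53 is known to lower such genes through the CDK inhibitor p21, the product of CDKN1A.

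Values are RPKM, reads per gene scaled by its length in kilobases and by the mapped reads of the library, and alignments per library ran from 45902800 to 55507300. CDKN1A stood at 722 to 1070 RPKM in the p53+/+ libraries with Nutlin-3A, alone or in the combination, against 66.1 to 121 RPKM in those without it. Among 10 markers of colorectal epithelium 6 had at least 1 RPKM in every library (EPCAM, KRT8, KRT18, KRT19, CDH1 and CDX2). The intestinal markers CDX1, VIL1 and LGR5 stayed under 1 RPKM in every library, and KRT20 ran from 0.277 to 1.02 RPKM. Among 10 markers of blood, vessel and connective tissue cells 7 stayed under 1 RPKM in every library. The exceptions were COL1A1 (2 to 5.8 RPKM), ACTA2 (0.289 to 15.3 RPKM) and VIM (0.223 to 3.34 RPKM). PTPRC, CD3E, CD14, PECAM1 and COL1A2 were at 0 in at least 1 library and at no more than 0.197 RPKM in any. ACTA2, a smooth muscle actin, moved with the drug: in p53+/+ cells it had 13.5 and 12.4 RPKM with Nutlin-3A and 15.3 and 11.6 RPKM with the combination, against 1.43 and 1.71 RPKM with DMSO (log2 changes 2.71 and 2.74, both called). The 10 markers summed to 15.7 to 16.3 RPKM with Nutlin-3A, 8.28 to 10.1 RPKM with Entinostat and 18.1 to 24.7 RPKM with the combination in p53+/+ cells, against 4.6 to 5.2 RPKM with DMSO. The sums in p53-/- cells were 2.68 to 3.83 RPKM with Nutlin-3A, 5.59 to 8.76 RPKM with Entinostat and 5.89 to 9.16 RPKM with the combination, against 2.78 to 3.92 RPKM with DMSO. What part this had in the changes of the repair genes was not tested. In bulk RNA, fewer cells that express a gene and less of its RNA per cell cannot be told apart.

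The repair genes spanned a wide range of levels without drug. In p53+/+ cells with DMSO, UBE2T was the most abundant at 76.9 ± 4.1 RPKM (SD, n = 2), above RAD51C at 44.9 ± 2.5 RPKM, FANCI at 32.1 ± 2.2 RPKM and RBBP8 at 31.1 ± 1.1 RPKM, of which FANCI and RBBP8 did not differ beyond their spread. At the other end, BRCA2 had 1.65 ± 0.15 RPKM, FANCF 1.82 ± 0.05 RPKM, ATM 2.21 ± 0.36 RPKM and FANCB 2.36 ± 0.17 RPKM. In this order none of these genes differed from the next beyond their spread. The map of the 34 genes in the 16 libraries shows where they moved: the p53+/+ columns with Nutlin-3A and with the combination are mostly below the DMSO level.

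**Figure D1:**
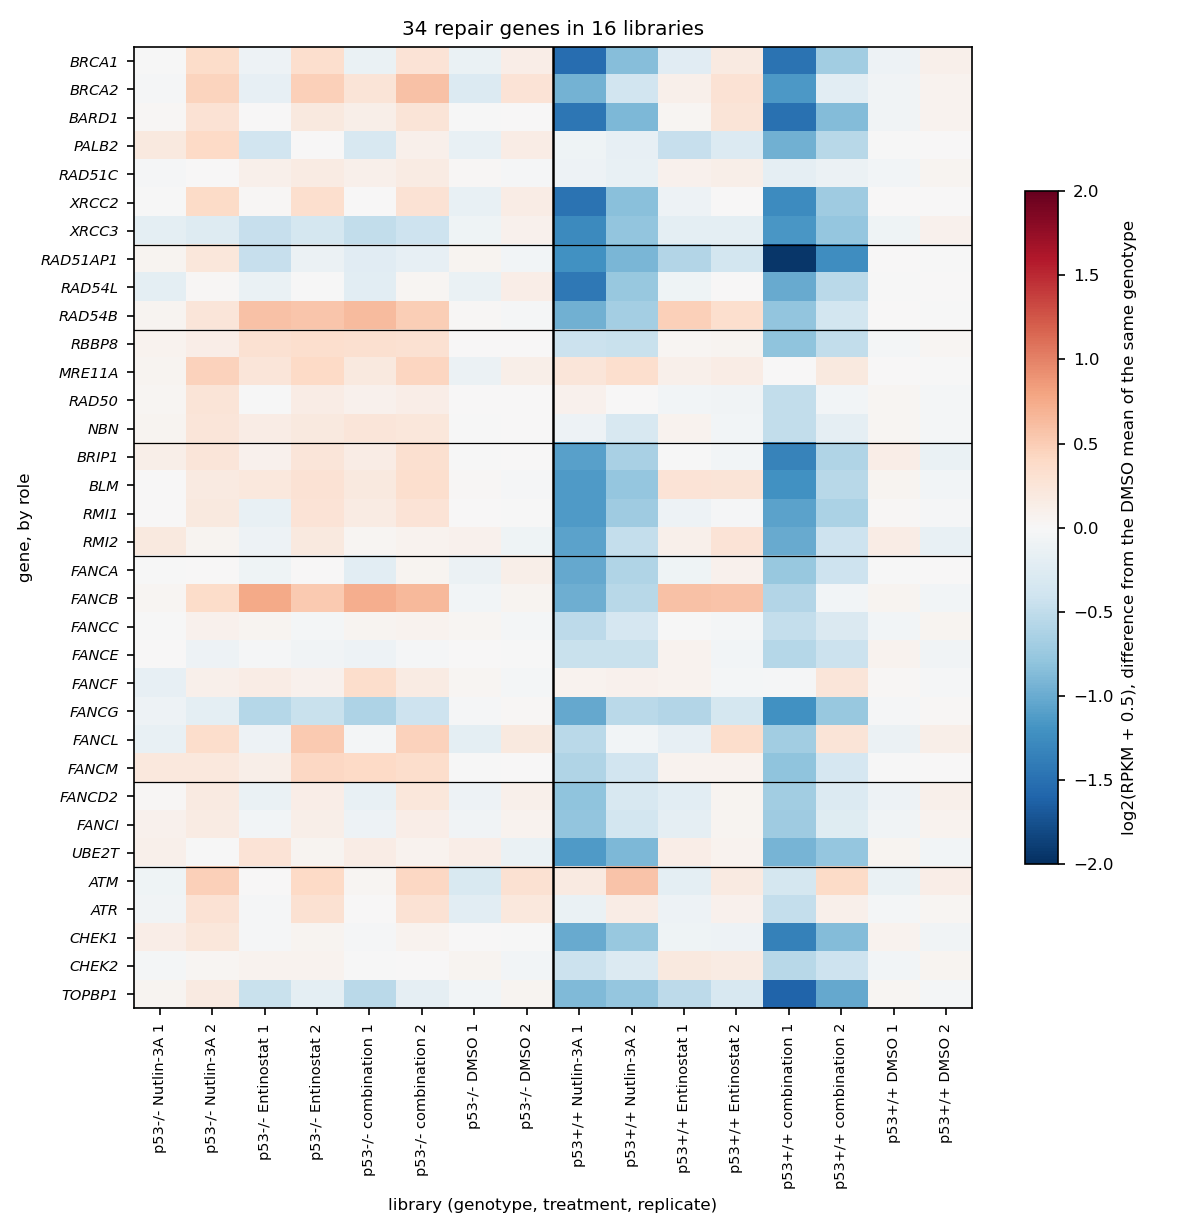
Heat map of 34 repair genes (rows, ordered by role, with lines between roles) in 16 libraries (columns, p53-/- left of the line and p53+/+ right of it). Colour is log2(RPKM + 0.5) minus the mean of the DMSO libraries of the same genotype, blue for lower and red for higher. The blue block is formed by the 4 p53+/+ libraries with Nutlin-3A or the combination, and RAD51AP1 has the lowest mean with the combination (-1.60), while FANCB and RAD54B are red in Entinostat libraries of both genotypes.

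Differences were tested on log2(RPKM + 0.5) with limma over 12466 genes with a mean of at least 0.5 RPKM, and a gene was called at a Benjamini-Hochberg adjusted p under 0.05 over all of them. With Nutlin-3A, 23 of the 34 genes fell in p53+/+ cells and 0 rose, against 9.50% of all tested genes lower and 7.89% higher. The median log2 change was -0.71 over the 34 genes and -0.02 over all tested genes. Both Nutlin-3A libraries lay below both DMSO libraries for 28 of the 34 genes, as they did for 34.5% of all tested genes. The fall was led by BRCA1, BARD1, XRCC2, RAD54L and RAD51AP1, each of which had under 0.5 of its DMSO level on the RPKM scale. The groups with the highest share called were the strand exchange cofactors (3 of 3) and the helicases and dissolution factors (4 of 4). The group with the lowest was end resection (1 of 4). The calls of BARD1, RAD51AP1, RAD54L, RAD54B, XRCC3, BLM, RMI1, FANCA, FANCE, UBE2T and CHEK1 held in every alternative tried. Without Nutlin-3A replicate 1 the count was 12, and BRCA1, BRIP1, XRCC2, RMI2, FANCB, FANCC, FANCG, FANCI, FANCM, CHEK2 and TOPBP1 were lost (adjusted p of 0.054 to 0.27). Without DMSO replicate 2 it was 15, and BRCA1, RMI2, FANCB, FANCC, FANCI, FANCM, RBBP8 and CHEK2 were lost (adjusted p of 0.055 to 0.18).

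Of the 7 mediators of strand invasion (BRCA1, BARD1, PALB2, BRCA2, RAD51C, XRCC2 and XRCC3), 4 fell with Nutlin-3A in p53+/+ cells. BRCA1, the scaffold and ubiquitin ligase that directs the choice of recombination, had 2.82 and 4.83 RPKM in the Nutlin-3A libraries, against 8.44 and 9.76 RPKM in the DMSO libraries. BARD1, its obligate partner, had 1.17 and 1.92 RPKM with Nutlin-3A, against 3.82 and 4.26 RPKM with DMSO. For both genes the libraries did not overlap, and the 2 Nutlin-3A libraries differed from each other more than the 2 DMSO libraries did. The log2 change was -1.19 ± 0.28 (SE) for BRCA1 (adjusted p = 0.013) and -1.17 ± 0.21 for BARD1 (adjusted p = 0.0021). XRCC2 and XRCC3, which act in strand invasion, also fell, with log2 changes of -1.16 ± 0.23 and -1.03 ± 0.16 (adjusted p = 0.004 and 0.00074). BRCA2, a mediator that binds the resected strand, had a log2 change of -0.66 (adjusted p = 0.19, and 0.0065 with replicates as a block). PALB2, which links BRCA1 to BRCA2, and RAD51C, a partner of XRCC3, both had a log2 change of -0.12 and were not called.

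All 3 strand exchange cofactors fell. RAD54L, a motor protein that helps the strand pair with its template, had 4.5 and 7.52 RPKM with Nutlin-3A, against 12.9 and 13.1 RPKM with DMSO. Its highest Nutlin-3A library was well under its lowest DMSO library, and the log2 change was -1.09 ± 0.20 (SE, adjusted p = 0.003). RAD51AP1, which stimulates strand exchange, and RAD54B, a relative of RAD54L, had log2 changes of -1.06 ± 0.19 and -0.82 ± 0.14 (adjusted p = 0.0026 and 0.0017). Of the 4 end resection genes RBBP8 alone was called. RBBP8, the cofactor that starts resection, had 22.9 and 22.6 RPKM with Nutlin-3A, against 30.3 and 31.8 RPKM with DMSO, a log2 change of -0.44 ± 0.09 (SE, adjusted p = 0.0061). The nuclease MRE11A had a log2 change of 0.29 (adjusted p = 0.21, and 0.044 with the replicate block), RAD50 one of 0.05 and NBN one of -0.21.

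All 4 helicases and dissolution factors fell. BLM, the helicase mutated in Bloom syndrome, had 4.31 and 5.64 RPKM with Nutlin-3A, against 10.4 and 9.64 RPKM with DMSO. The groups were well apart, and the log2 change was -0.95 ± 0.18 (SE, adjusted p = 0.0027). Its partners RMI1 and RMI2 had log2 changes of -0.92 ± 0.17 and -0.78 ± 0.21, and BRIP1 (FANCJ), a helicase that binds BRCA1, had one of -0.87 ± 0.20.

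In the Fanconi core complex 6 of 8 genes fell, and the median log2 change of the 8 was -0.47, against -1.03 for the 7 mediators of strand invasion. FANCA, a core subunit that is often mutated in Fanconi anaemia, had 8.24 and 11.2 RPKM with Nutlin-3A, against 17.2 and 17.4 RPKM with DMSO. The Nutlin-3A libraries lay clearly below the DMSO libraries, and the log2 change was -0.81 ± 0.15 (SE, adjusted p = 0.0031). FANCG (-0.78), FANCB (-0.76), FANCM (-0.49), FANCE (-0.45) and FANCC (-0.43) had smaller log2 changes that were also called. FANCL, the ubiquitin ligase subunit, had a log2 change of -0.30 (adjusted p = 0.59), and FANCF, an adaptor subunit, one of 0.08 (adjusted p = 0.74). Of the genes around the ubiquitinated pair, UBE2T, the ubiquitin-conjugating enzyme of the pathway, had 34.8 and 41.2 RPKM with Nutlin-3A, against 79.8 and 74.0 RPKM with DMSO. This was the lowest adjusted p among the 34 genes, with non-overlapping libraries and a log2 change of -1.01 ± 0.12 (SE, adjusted p = 1e-04). FANCI had a log2 change of -0.58 ± 0.17 (adjusted p = 0.032), and FANCD2, its partner, had a near equal change of -0.57 that was not called (adjusted p = 0.062, and 3.1e-04 with the replicate block).

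Of the 5 checkpoint genes, the effector kinases and the ATR activator fell and the upstream kinases were not called. CHEK1, the kinase that acts below ATR, had 6.09 and 7.28 RPKM with Nutlin-3A, against 13.3 and 12.1 RPKM with DMSO. The Nutlin-3A libraries lay far under the DMSO libraries, with a log2 change of -0.88 ± 0.14 (SE, adjusted p = 0.00084). TOPBP1, which activates ATR, had a log2 change of -0.83 ± 0.17 (adjusted p = 0.0055), and CHEK2, the kinase below ATM, one of -0.35 ± 0.09 (adjusted p = 0.013). ATR had a log2 change of 0.01 with a 95% interval of -0.46 to 0.47. ATM had one of 0.38 with an interval of -0.26 to 1.02, and it was called higher only with the replicate block (adjusted p = 0.024).

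**Figure D2:**
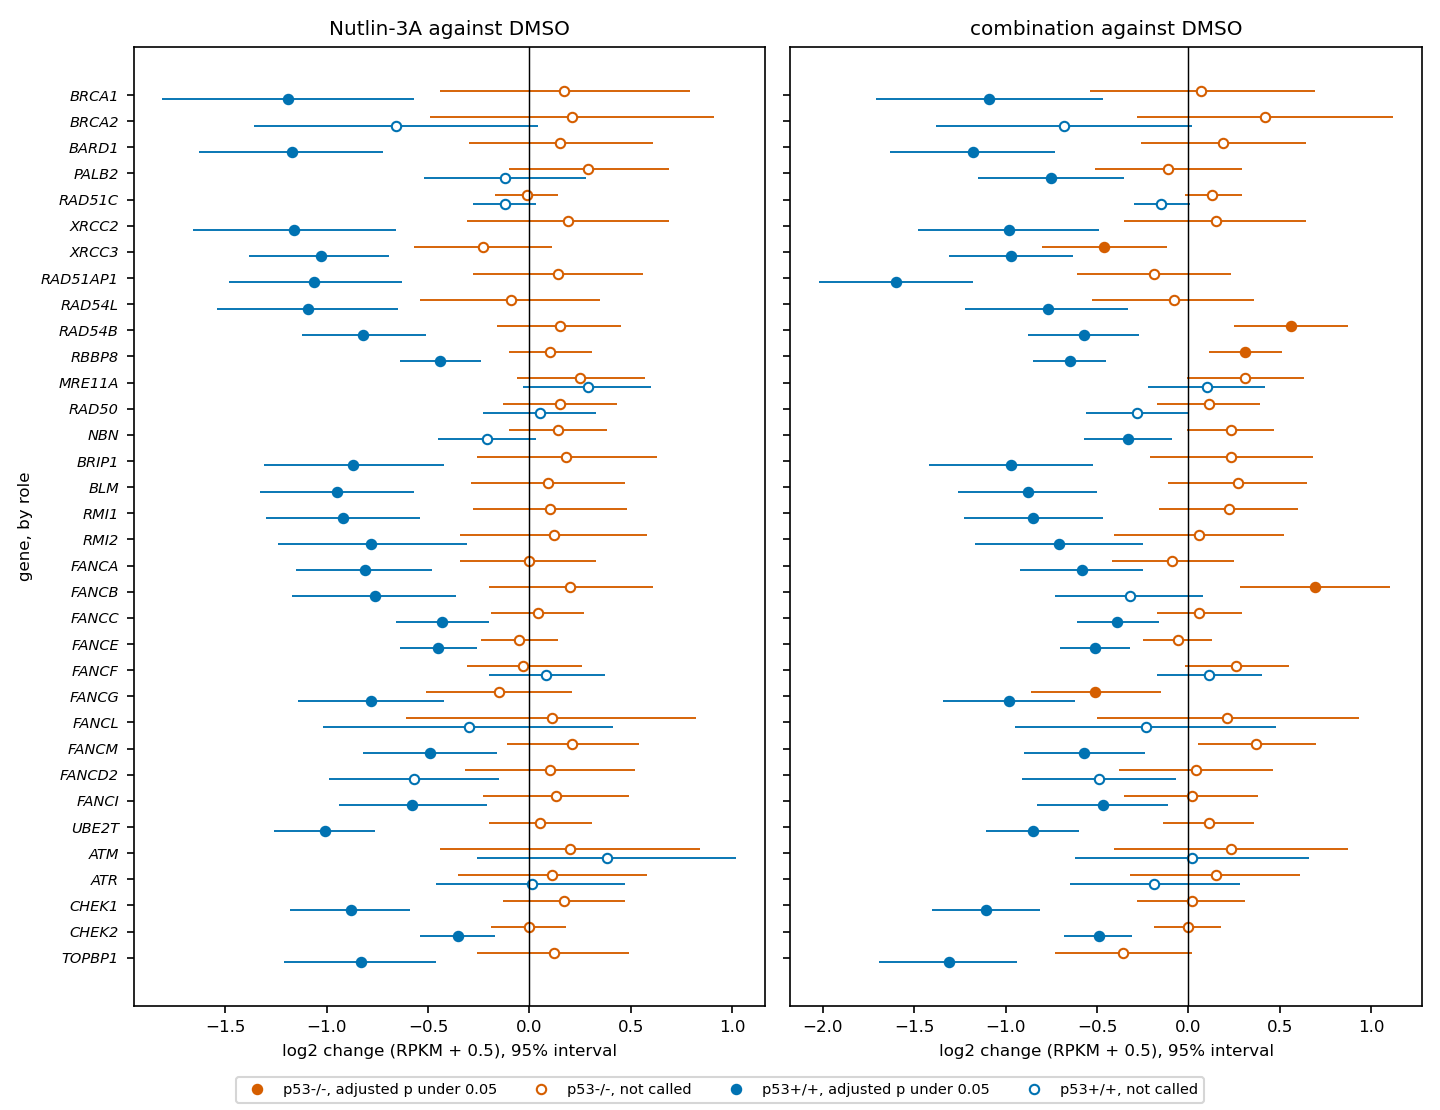
Log2 change of each of the 34 genes on the log2(RPKM + 0.5) scale with its 95% interval, for Nutlin-3A (left panel) and the combination (right panel) against DMSO. In each row p53-/- cells are drawn in orange above p53+/+ cells in blue, and filled points passed an adjusted p of 0.05. In p53+/+ cells 23 points on the left and 24 on the right are filled and below 0, and in p53-/- cells none on the left and 5 on the right are filled.

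Genes of related processes moved in the same comparison. In a list of 71 other genes of recombination, crosslink repair and the damage checkpoint, 27 fell with Nutlin-3A in p53+/+ cells and 0 rose (median log2 change -0.37). CLSPN, which carries the signal from ATR to CHEK1, fell to a mean of 2.81 RPKM with Nutlin-3A, against 10.0 RPKM with DMSO (log2 change -1.70). EXO1, a resection nuclease, fell to 5.58 RPKM, against 18.0 RPKM with DMSO (log2 change -1.62). Of 10 genes of end joining, the repair route that needs no template, 0 fell and 1 rose, POLL, a gap-filling polymerase (log2 change 0.68), and the median was -0.09. Of 35 DNA replication genes 28 fell and 0 rose, and of 30 mitosis genes 29 fell and 0 rose, with medians of -0.94 and -1.23, both below the median of the 34 repair genes. Of 12 E2F factors and their partners 8 fell and 1 rose, E2F7 (log2 change 0.68). Among those that fell was E2F1, which had a mean of 5.4 RPKM with Nutlin-3A, against 17.5 RPKM with DMSO. What part the number of cells copying their DNA or dividing had in the fall of the repair genes was not tested.

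**Figure D3:**
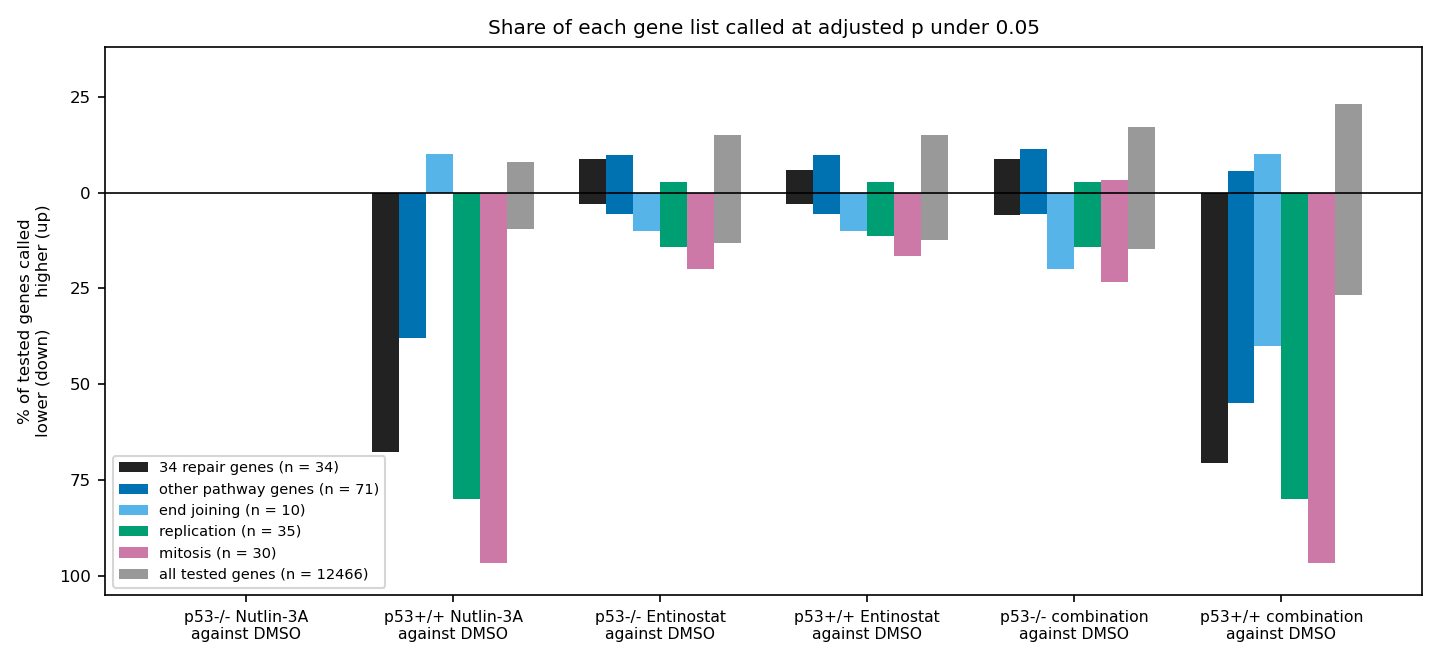
Percent of the tested genes of each list called higher (up from 0) or lower (down from 0) at an adjusted p under 0.05, for each drug against DMSO, with each p53-/- comparison left of the p53+/+ one. Bars stand for the 34 repair genes, 71 other pathway genes, 10 end joining, 35 replication and 30 mitosis genes and all 12466 tested genes. With Nutlin-3A in p53+/+ cells the downward bars of the repair, replication and mitosis genes reach 67.6%, 80.0% and 96.7%, against 9.50% for all tested genes, and p53-/- cells with Nutlin-3A have no bars.

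The reference promoters of these genes were searched for letters bound by E2F factors, the DREAM complex and NF-Y, since many of the genes fell together. RefSeq windows of GRCh38.p14 (300 bases, 250 before and 50 after a transcription start) were found for 30 of the 34 genes, 8 of them with more than 1 window, and RAD54B, RMI2, FANCI and NBN had no entry. An E2F match (TTTCCCGC, TTTGGCGC or TTTCGCGC on either strand) was present in 4 of 30 genes (13.3%), against 3.3% of 27305 genes with a window in the table. A match to CHR, the element bound by the DREAM complex (TTTGAA or TTCGAA), was present in 4 of 30 genes (13.3%), against 19.5% of all genes. A match to CCAAT, the letters bound by NF-Y, was present in 16 of 30 genes (53.3%), against 39.7% of all genes. Among the 20 genes with a window that fell with Nutlin-3A, 3 had an E2F match, 3 a CHR match and 12 a CCAAT match, and among the 10 that were not called there, 1, 1 and 4 had them. The 27305 genes were taken without regard to expression, while all 34 repair genes passed the filter on low values. The shares among the tested genes were not computed. A match is only a run of letters, and these windows come from a reference genome that is not the hg19 build of the expression table. The windows of the 4 genes with an E2F match are given from 5′ to 3′ on the strand of the gene, to show where the match lies, with E2F and CHR matches in capitals.
FANCC: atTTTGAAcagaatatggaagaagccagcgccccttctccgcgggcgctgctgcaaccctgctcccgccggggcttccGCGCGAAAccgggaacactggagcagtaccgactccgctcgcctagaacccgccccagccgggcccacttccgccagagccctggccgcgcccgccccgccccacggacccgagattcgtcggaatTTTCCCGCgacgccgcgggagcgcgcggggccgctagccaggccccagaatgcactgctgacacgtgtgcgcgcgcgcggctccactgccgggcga
FANCD2: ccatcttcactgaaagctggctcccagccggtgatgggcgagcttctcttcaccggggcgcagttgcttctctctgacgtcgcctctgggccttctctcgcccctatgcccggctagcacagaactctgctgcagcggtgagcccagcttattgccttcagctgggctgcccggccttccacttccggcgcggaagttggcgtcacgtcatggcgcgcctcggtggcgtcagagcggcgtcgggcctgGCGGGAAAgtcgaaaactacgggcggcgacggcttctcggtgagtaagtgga
TOPBP1: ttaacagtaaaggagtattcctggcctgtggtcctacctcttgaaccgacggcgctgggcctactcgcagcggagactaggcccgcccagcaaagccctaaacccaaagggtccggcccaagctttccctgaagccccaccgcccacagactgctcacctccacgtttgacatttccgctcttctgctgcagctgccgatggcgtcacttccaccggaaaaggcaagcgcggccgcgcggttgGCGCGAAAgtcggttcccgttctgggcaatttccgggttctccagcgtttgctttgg
XRCC2: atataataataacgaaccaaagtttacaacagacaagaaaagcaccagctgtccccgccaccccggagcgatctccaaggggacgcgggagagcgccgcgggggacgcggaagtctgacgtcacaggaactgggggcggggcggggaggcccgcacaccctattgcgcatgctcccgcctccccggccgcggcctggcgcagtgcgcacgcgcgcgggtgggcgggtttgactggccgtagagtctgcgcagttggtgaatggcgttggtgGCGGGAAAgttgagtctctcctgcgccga
The FANCC window is chr9:95317660-95317959 on the minus strand, and its matches begin at -248 (CHR), -172 and -46 (both E2F), counted in bases relative to the start. A gene was counted if any of its windows held a match, and the other FANCC window, chr9:95317205-95317504, held no E2F, CHR or CCAAT match. The FANCD2 window is chr3:10026187-10026486 on the plus strand, with a match that begins at -2. The TOPBP1 window is chr3:133661892-133662191 on the minus strand, with a match at -7, and the XRCC2 window is chr7:152676092-152676391 on the minus strand, with a match at 22. Of these 4 genes, XRCC2, TOPBP1 and FANCC fell with Nutlin-3A in p53+/+ cells and FANCD2 was not called.

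In p53-/- cells Nutlin-3A changed none of the 34 genes by this test, as it changed 0% of all tested genes. At an unadjusted p under 0.05 the count was 0 of 34, against 440 of 12466 for all tested genes, and with the replicate block the count of called repair genes was again 0. The log2 changes ran from -0.23 (XRCC3) to 0.29 (PALB2), with a median of 0.12. Of the 34, 26 were positive, against 6417 of 12466 for all tested genes. UBE2T had 84.3 and 78.0 RPKM in p53-/- libraries with Nutlin-3A, against 85.7 and 71.2 RPKM with DMSO, so the groups overlapped. CHEK1 had 13 and 13.9 RPKM with Nutlin-3A, against 11.9 and 11.8 RPKM with DMSO, with the drug libraries slightly above. BARD1 had 4.19 and 5.12 RPKM with Nutlin-3A, against 4.07 and 4.15 RPKM with DMSO. In these 3 genes no p53-/- library came near the low levels of p53+/+ cells with Nutlin-3A.

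The difference between genotypes in the response to Nutlin-3A was then tested itself, as the log2 change in p53-/- cells minus that in p53+/+ cells. It was above 0 and called in 13 of the 34 genes, against 3.29% of all tested genes, and below 0 and called in 0, against 3.49% (6.78% in either direction). The median difference was 0.76 over the 34 genes and 0.02 over all tested genes. UBE2T had a difference of 1.06 ± 0.16 (SE, adjusted p = 0.0025) and CHEK1 one of 1.05 ± 0.19 (adjusted p = 0.006), and these were the 2 calls that held in every alternative. XRCC2 (1.35), BARD1 (1.33) and RAD51AP1 (1.19) had larger differences. With the replicate block the count was 25, against 17.1% of all tested genes. BRCA1, with a difference of 1.36, was called with the block (adjusted p = 1.5e-04) but not without it (adjusted p = 0.067). The count was small without some libraries: 2 without p53+/+ Nutlin-3A replicate 1 or p53-/- Nutlin-3A replicate 2, 3 without p53+/+ DMSO replicate 2 or p53-/- DMSO replicate 1, and 4 without p53+/+ DMSO replicate 1 or p53-/- DMSO replicate 2.

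Entinostat alone moved few repair genes. In p53-/- cells 3 of the 34 rose and 1 fell, against 15% of all tested genes higher and 13.3% lower. In p53+/+ cells 2 rose and 1 fell, against 15.1% higher and 12.4% lower. These shares are near or under those of all tested genes. FANCB, an X-linked subunit of the Fanconi core complex, had 4.28 and 3.56 RPKM with Entinostat in p53-/- cells, against 2.22 and 2.43 RPKM with DMSO. In p53+/+ cells it had 3.77 and 3.73 RPKM with Entinostat, against 2.48 and 2.24 RPKM with DMSO. The drug libraries lay above the DMSO libraries in both genotypes, with log2 changes of 0.64 ± 0.19 in p53-/- cells and 0.57 ± 0.19 in p53+/+ cells (SE, adjusted p = 0.023 and 0.039). RAD54B had 7.17 and 7.01 RPKM with Entinostat in p53-/- cells, against 4.71 and 4.56 RPKM with DMSO. In p53+/+ cells it had 6.01 and 5.38 RPKM, against 4.2 and 4.11 RPKM with DMSO. It too was above DMSO in both genotypes, with log2 changes of 0.56 and 0.41 (adjusted p = 0.012 and 0.046).

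FANCG, a scaffold of the core complex, was the member called lower with Entinostat. It had 16.9 and 18.5 RPKM in p53-/- cells with Entinostat, against 24.8 and 25.9 RPKM with DMSO. In p53+/+ cells it had 14.2 and 16.7 RPKM, against 21.3 and 21.8 RPKM with DMSO. The log2 changes were -0.51 ± 0.16 and -0.47 ± 0.16 (SE, adjusted p = 0.037 and 0.049), with drug libraries below DMSO libraries each time. RBBP8 rose in p53-/- cells, with 27.7 and 28.2 RPKM with Entinostat, against 22.3 and 22.3 RPKM with DMSO (log2 change 0.32, adjusted p = 0.024), and had a log2 change of 0.05 in p53+/+ cells. With the replicate block 7 genes were called in p53-/- cells and 6 in p53+/+ cells, against 45.5% and 44.6% of all tested genes. RAD51AP1 and TOPBP1, with log2 changes of -0.47 and -0.42 in p53+/+ cells, were called lower only with the block (adjusted p = 0.018 and 0.012).

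Few of the calls for Entinostat were left when 1 library was left out. In p53+/+ cells 0 of the 3 were left when any of the 4 libraries of the comparison was left out (adjusted p of 0.057 to 0.29). In p53-/- cells 0 were left without Entinostat replicate 1 or DMSO replicate 2, 1 without DMSO replicate 1 and 2 without Entinostat replicate 2. The difference between the genotypes in the response to Entinostat was called in 0 of the 34 genes and in 0% of all tested genes by limma. It was called in 0 with the replicate block and in 0 at an unadjusted p under 0.05, where 164 of all tested genes passed. The differences ran from -0.20 (XRCC3) to 0.27 (RBBP8), with a median of 0.09.

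With the combination in p53+/+ cells, 24 of the 34 genes fell and 0 rose, against 26.8% of all tested genes lower and 23.2% higher. The median log2 change was -0.62 over the 34 genes and -0.03 over all tested genes. RAD51AP1 moved the most, with 3.13 and 5.44 RPKM with the combination, against 13.6 and 13.5 RPKM with DMSO, a log2 change of -1.60 ± 0.19 (SE, adjusted p = 9.2e-05). TOPBP1 had 6.76 and 10.4 RPKM with the combination, against 22.1 and 21.0 RPKM with DMSO, and its log2 change was -1.31 ± 0.17 (adjusted p = 0.00014). In both genes the higher combination library was at no more than 0.5 of the DMSO level. BARD1 had 1.11 and 1.99 RPKM with the combination, against 3.82 and 4.26 RPKM with DMSO (log2 change -1.18 ± 0.21, adjusted p = 0.00079). CHEK1 had 4.69 and 6.74 RPKM, against 13.3 and 12.1 RPKM with DMSO (log2 change -1.11 ± 0.14, adjusted p = 9.8e-05). Both genes thus fell with Nutlin-3A alone and with the combination. Without combination replicate 1 the count of called genes was 14, and BRCA1, PALB2, RAD54L, RAD54B, RMI2, FANCA, FANCC, FANCI, FANCM and NBN were lost (adjusted p of 0.06 to 0.3).

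The other role groups each held at least 1 gene that fell with the combination. FANCG had 9.06 and 12.6 RPKM with the combination, against 21.3 and 21.8 RPKM with DMSO (log2 change -0.98 ± 0.16, adjusted p = 0.00057). BRIP1 had 1.74 and 3.22 RPKM, against 5.7 and 4.68 RPKM with DMSO (log2 change -0.97 ± 0.20, adjusted p = 0.0023). UBE2T had 40 and 44.7 RPKM, against 79.8 and 74.0 RPKM with DMSO (log2 change -0.85 ± 0.12, adjusted p = 0.00018). In these 3 genes the libraries did not overlap. RBBP8 had 17.5 and 22.0 RPKM with the combination, against 30.3 and 31.8 RPKM with DMSO, a log2 change of -0.65 ± 0.09 (adjusted p = 0.00024). PALB2 and NBN, not called with Nutlin-3A, fell with the combination, with log2 changes of -0.75 and -0.33, and the combination itself was called lower than Nutlin-3A for PALB2 but not for NBN (adjusted p = 0.41). FANCB, called lower with Nutlin-3A, was not called with the combination (1.4 and 2.24 RPKM, against 2.48 and 2.24 RPKM with DMSO, log2 change -0.32), and the difference between the combination and Nutlin-3A was not called (adjusted p = 0.084). Without combination replicate 2 the log2 change of FANCB was -0.59 and it was called lower (adjusted p = 0.025).

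**Figure D4:**
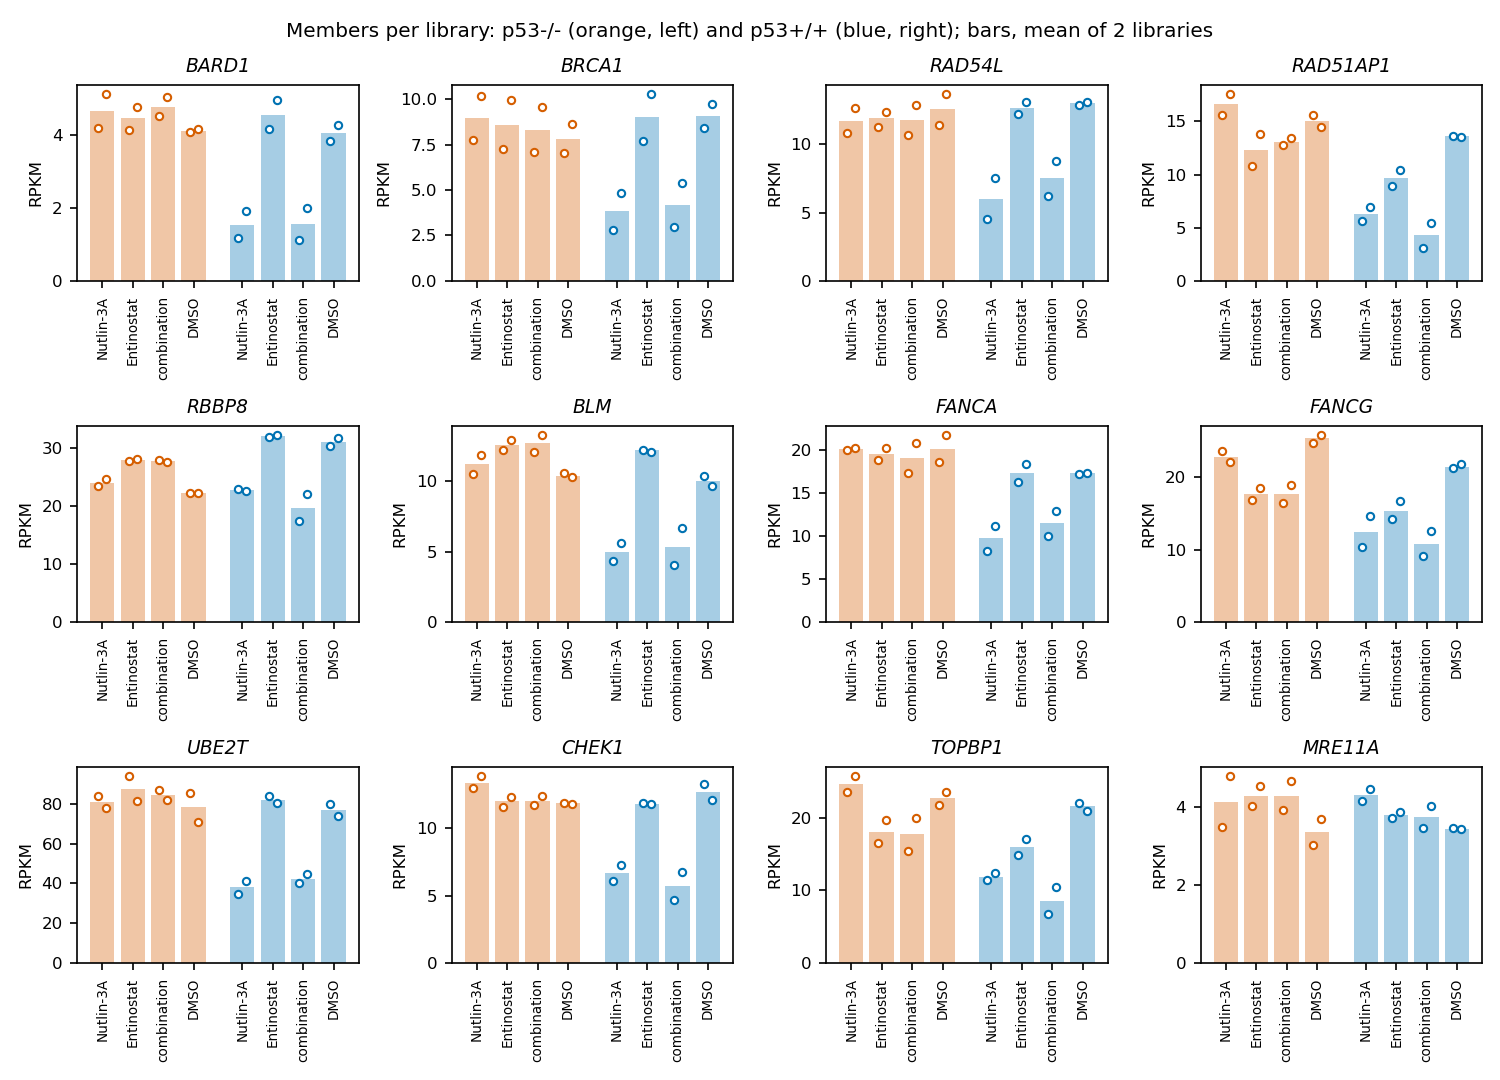
RPKM of 12 repair genes on linear axes from 0, with open circles for single libraries and bars for means of 2 libraries, p53-/- groups in orange left of p53+/+ groups in blue. In p53+/+ cells UBE2T is at 34.8 to 44.7 RPKM with Nutlin-3A or the combination, against 74.0 and 79.8 RPKM with DMSO, and MRE11A, drawn as a gene that was not called, stays between 3.42 and 4.46 RPKM.

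Adding Entinostat to Nutlin-3A in p53+/+ cells lowered 3 of the 34 genes and raised 0, against 18.1% of all tested genes lower and 16.6% higher. PALB2 had 2.91 and 4.03 RPKM with the combination, against 5.76 and 5.43 RPKM with Nutlin-3A, a log2 change of -0.63 ± 0.18 (SE, adjusted p = 0.02). RAD51AP1 had 3.13 and 5.44 RPKM with the combination, against 5.6 and 6.97 RPKM with Nutlin-3A (log2 change -0.54 ± 0.19, adjusted p = 0.048). TOPBP1 had 6.76 and 10.4 RPKM, against 11.4 and 12.4 RPKM with Nutlin-3A (log2 change -0.48 ± 0.17, adjusted p = 0.048). In all 3 genes both combination libraries lay below both Nutlin-3A libraries. The same genes had log2 changes of -0.36, -0.47 and -0.42 with Entinostat alone in p53+/+ cells. The count was 7 with the replicate block, 0 without Nutlin-3A replicate 1 and 6 without combination replicate 2. Without combination replicate 1 it was 1, FANCB, called higher with a log2 change of 0.70 (adjusted p = 0.034), and without Nutlin-3A replicate 2 it was 2, FANCB and RAD54L, both called higher. The calls of PALB2, RAD51AP1 and TOPBP1 thus needed both Nutlin-3A libraries and combination replicate 1.

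Adding Nutlin-3A to Entinostat in p53+/+ cells lowered 22 of the 34 genes and raised 0, against 9.69% of all tested genes lower and 5.16% higher. FANCB had 1.4 and 2.24 RPKM with the combination, against 3.77 and 3.73 RPKM with Entinostat, a log2 change of -0.90 ± 0.19 (SE, adjusted p = 0.0074). RAD54B, the other gene that rose with Entinostat, had 2.2 and 3.11 RPKM with the combination, against 6.01 and 5.38 RPKM with Entinostat (log2 change -0.99 ± 0.14, adjusted p = 0.00083). BLM had 4.04 and 6.67 RPKM, against 12.2 and 12.1 RPKM with Entinostat (log2 change -1.15 ± 0.18, adjusted p = 0.0012). In all 3 genes both combination libraries lay below both Entinostat libraries. The calls of BLM and RAD54B held in every alternative, and that of FANCB was lost without combination replicate 1. The count was 11 without Entinostat replicate 2 and 10 without combination replicate 1. Whether the combination departed from the sum of the separate log2 changes was tested too, and limma called 0 of the 34 genes and 0% of all tested genes. The count was 0 with the replicate block as well, and 1 of 34 at an unadjusted p under 0.05, against 587 of all tested genes. The departures ran from -0.34 (ATM) to 0.36 (RAD54L), with a median of -0.10.

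In p53-/- cells the combination was set against the same DMSO libraries as Entinostat alone. Of the 34 genes 3 rose and 2 fell, against 17.1% of all tested genes higher and 14.7% lower. FANCB had 4.18 and 3.93 RPKM with the combination, against 2.22 and 2.43 RPKM with DMSO (log2 change 0.69 ± 0.19, adjusted p = 0.015). RAD54B had 7.43 and 6.73 RPKM, against 4.71 and 4.56 RPKM with DMSO (log2 change 0.56 ± 0.14, adjusted p = 0.011). RBBP8 had 27.9 and 27.6 RPKM, against 22.3 and 22.3 RPKM with DMSO (log2 change 0.31 ± 0.09, adjusted p = 0.024). These 3 genes, higher than DMSO here, were also those called higher with Entinostat in p53-/- cells. FANCG had 16.4 and 19 RPKM with the combination, against 24.8 and 25.9 RPKM with DMSO (log2 change -0.51, adjusted p = 0.033), and XRCC3 had 9.55 and 10.1 RPKM, against 12.8 and 14.6 RPKM with DMSO (log2 change -0.46, adjusted p = 0.042). The count was 9 with the replicate block, 0 without combination replicate 1 or DMSO replicate 2, 1 without DMSO replicate 1 and 3 without combination replicate 2.

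The response to the combination also differed between genotypes. The log2 change in p53-/- cells minus that in p53+/+ cells was above 0 and called in 13 of the 34 genes and below 0 and called in 0, against 3.81% of all tested genes above and 1.97% below. All 34 differences were positive, against 6790 of 12466 for all tested genes. The median was 0.67 over the 34 genes, against 0.04 over all tested genes. RBBP8 had the lowest adjusted p, with a difference of 0.96 ± 0.13 (SE, adjusted p = 0.0036): it rose in p53-/- cells and fell in p53+/+ cells. RAD54B, which also rose in p53-/- cells and fell in p53+/+ cells, had a difference of 1.13 ± 0.20 (adjusted p = 0.0099). RAD51AP1 had the largest difference, 1.41 ± 0.27 (adjusted p = 0.014). RAD54B, UBE2T, RBBP8 and CHEK1 were called in every alternative tried. The count was 26 with the replicate block, where 23.8% of all tested genes were called. It was 7 without p53-/- combination replicate 1, 5 without p53+/+ combination replicate 1 or p53-/- DMSO replicate 1, and 4 without p53-/- combination replicate 2, p53-/- DMSO replicate 2 or either p53+/+ DMSO library.

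Without drug 1 repair gene differed between the genotypes. RBBP8 was lower in p53-/- cells, with 22.3 and 22.3 RPKM, against 30.3 and 31.8 RPKM in p53+/+ cells (log2 change -0.47 ± 0.09, SE, adjusted p = 0.011), and it was the only one of the 34 genes called, against 3.13% of all tested genes lower, 1.56% higher and 4.69% in either direction. The call was lost when any of the 4 DMSO libraries was left out (adjusted p of 0.064 to 0.099). RMI2 had 5.94 and 5.18 RPKM in p53-/- cells, against 9.08 and 7.33 RPKM in p53+/+ cells, a log2 change of -0.52 that was not called. For 24 of the 34 genes the DMSO libraries of the genotypes overlapped, while over all tested genes 26.5% had both p53-/- libraries below and 23.4% had both above. The median log2 change of the 34 genes was -0.01.

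The 2 libraries of a group did not always lie close. In p53+/+ cells with the combination, replicate 1 was below replicate 2 in all 34 genes, by a median of 0.46 on the log2 scale, and with Nutlin-3A in 29 of 34, by a median of 0.32. Over all tested genes 53.4% and 45.1% were lower in replicate 1 in those groups. The replication and mitosis lists had median differences, replicate 1 minus replicate 2, of -0.35 and -0.44 with the combination and of -0.36 and -0.49 with Nutlin-3A. Replicate 1 was also below replicate 2 in p53-/- cells, in 29 of 34 genes with Nutlin-3A, 27 with Entinostat and 27 with the combination, with median differences of -0.17, -0.16 and -0.13. In p53+/+ cells with Entinostat the median difference was -0.06, and with DMSO it was -0.02 in p53-/- cells and -0.01 in p53+/+ cells.

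**Figure D5:**
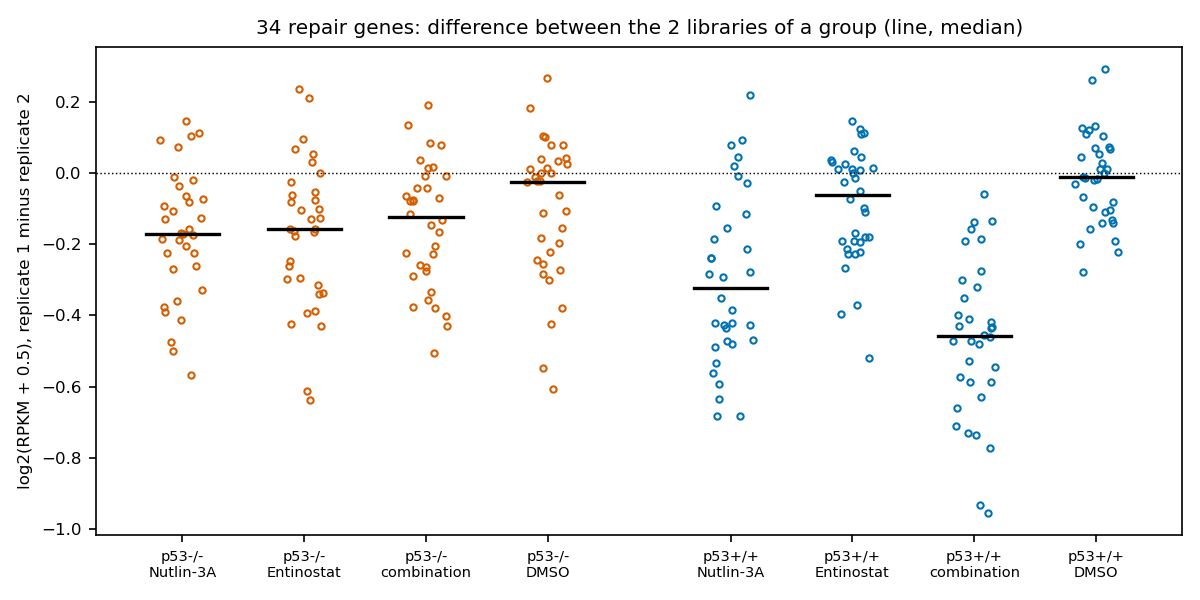
Difference between replicate 1 and replicate 2 of each group on the log2(RPKM + 0.5) scale, 1 point per repair gene, with the median as a line, p53-/- groups in orange left of p53+/+ groups in blue. The medians of p53+/+ cells with the combination (-0.46) and with Nutlin-3A (-0.32) are the farthest below 0.

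Most of the 34 genes shared a profile over the 8 group means. The correlation of a gene's log2 profile with the median profile of the 34 genes was at least 0.6 in every gene but ATR (0.49), MRE11A (-0.09), ATM (-0.43) and FANCF (-0.63). It was 1 for BARD1 and 0.99 for CHEK1, UBE2T, XRCC2, RMI1, BRIP1, FANCC and FANCD2. These are descriptions over 8 means of the same libraries, and the median profile contains the genes themselves. RAD51AP1 and TOPBP1, of the 3 genes lower with the combination than with Nutlin-3A, were each other's closest member (r = 0.99), and FANCB was closest to RAD54B (r = 0.97).

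Some of the genes share sequence with others, and the labels do not say whether the counting used strand. In the GENCODE annotation of GRCh38, 76.7% of the exon bases of XRCC3 lie opposite exons of KLC1, a kinesin light chain. KLC1 had a mean of 24.2 RPKM with Nutlin-3A in p53+/+ cells, against 24.9 RPKM with DMSO (log2 change -0.04), while XRCC3 fell. FANCA shares 23.6% of its exon bases with ZNF276 on the opposite strand, and ZNF276 rose with Nutlin-3A in p53+/+ cells (log2 change 0.38). RAD54L shares 25.1% with LRRC41 on the opposite strand, which had a log2 change of 0.44 with Nutlin-3A (not called) and fell with the combination (log2 change -0.72). On the same strand RAD50 shares 79.7% of its exon bases with the readthrough gene AC116366.3, and RAD54B shares 59.1% with FSBP. The values of RAD50 and RAD54B are therefore uncertain, as is every call of RAD54B given above. If the counting did not use strand, those of XRCC3, FANCA and RAD54L are uncertain too. The next largest shares of exon bases opposite other genes were 19.7% for FANCL, 16.4% for ATR and 11.3% for FANCF. The values of these genes would be uncertain in the same way. CHEK2 has 4 annotated pseudogenes, and FANCD2, MRE11A, RAD51AP1 and RBBP8 have 1 each, which could take or lend reads.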

How the data were processed

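The authors deposited 1 table of RPKM values for 20612 genes in 16 libraries, scaled by gene length and library size. Per the submitters' processing notes, Bowtie2, Partek and the hg19 build were used, and those notes name no versions, gene models or strand handling. Per the labels' protocols, libraries were stranded and made from polyadenylated RNA. No counts were given, so no count test was run. Some gene values are not reported here.

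Values were taken as log2(RPKM + 0.5), on which a change of a low gene is understated, and 12466 genes (60.5%) with a mean of at least 0.5 RPKM were tested. The 8 group means were fitted in 1 limma model (version 3.58.1, R 4.3.3) with an intensity trend. It had 8 residual degrees of freedom and 4.09 from the prior. For each of 13 comparisons, p-values were adjusted by Benjamini-Hochberg over the tested genes. All p-values are from limma. Standard errors and 95% intervals come from the same fit, and folds were taken on mean RPKM.

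The replicate number was used as a pairing in 1 alternative fit only. The reason to try it was that differences between replicates 1 and 2 correlated over genes in all 28 pairs of groups (r of 0.27 to 0.78, median 0.43). The fit without the replicate number is the main one, and it ignores any pairing. The fit with it as a block takes 1 replicate shift for all 8 groups. The median shift of the 34 genes ran from -0.46 (p53+/+, combination) to -0.01 (p53+/+, DMSO), so p-values with the block are uncertain for these genes. Other alternatives were pseudocounts of 0.1 and 1, no filter, a mean of at least 1 RPKM, median of ratios scaling, quantile normalization and each library left out.

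The 34 genes and the lists were chosen with earlier results of these data known, so the fall of recombination genes is no independent support of a result already seen. For each drug against DMSO, the members given in every library include those with large called log2 changes, at most 8, with at least 1 per role where one was called. For the combination against Entinostat only FANCB, RAD54B and BLM were given, though log2 changes of the 34 genes there went down to -1.33. At most 4 genes are named of other lists. Promoter windows are from RefSeq (GRCh38.p14), and exon overlaps from GENCODE (GRCh38), neither used for the expression values.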

Additional observations from a re-analysis of the deposited data

Results flagged for a closer look

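The response of 13 of the 34 genes to Nutlin-3A differed between genotypes by limma's test of the difference itself, against 6.78% of all tested genes. The difference is the log2 change in p53-/- cells minus that in p53+/+ cells. Among mediators of strand invasion the difference was 1.33 for BARD1, 1.35 for XRCC2 and 0.81 for XRCC3, and among the strand exchange cofactors 1.19 for RAD51AP1 and 0.97 for RAD54B. RBBP8 of end resection had a difference of 0.55, and the dissolution genes BLM and RMI1 had 1.05 and 1.03. In the Fanconi pathway FANCA had a difference of 0.81, FANCB one of 0.97 and UBE2T one of 1.06, and among checkpoint genes CHEK1 had 1.05 and TOPBP1 0.95. The adjusted p ran from 0.0025 (UBE2T) to 0.049 (XRCC3), and only the calls of UBE2T and CHEK1 held in every alternative. Each of these genes fell in p53+/+ cells, and in p53-/- cells none was called.

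For the combination the same test called 13 genes, against 5.78% of all tested genes. Only the calls of RAD54B, UBE2T, RBBP8 and CHEK1 held in every alternative. The difference was 1.37 for BARD1, 1.2 for BRIP1, 1.41 for RAD51AP1, 1.13 for RAD54B, 1.15 for BLM and 1.07 for RMI1. It was 1.01 for FANCB, 0.94 for FANCM and 0.96 for UBE2T in the Fanconi pathway. It was 0.96 for RBBP8, 1.12 for CHEK1, 0.49 for CHEK2 and 0.96 for TOPBP1. The adjusted p ran from 0.0036 (RBBP8) to 0.045 (FANCB). RBBP8, RAD54B and FANCB were called higher than DMSO in p53-/- cells, and of these RBBP8 and RAD54B were called lower in p53+/+ cells.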

How the results depend on the processing

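No call of a gene among the 34 changed sign under any alternative tried. Of 111 calls of a gene in a comparison, 40 held in every alternative, and of 1325 values under an alternative 1013 kept the call and 312 lost it with the same sign. With the replicate block the count was 27 for Nutlin-3A and 27 for the combination in p53+/+ cells, 6 for Entinostat in p53+/+ cells, 7 for Entinostat and 9 for the combination in p53-/- cells, 25 and 26 for the genotype difference under Nutlin-3A and the combination, and 7 for the combination against Nutlin-3A. The block moved no other count by more than 1.5 times. Over all tested genes the block called 31.5% with Nutlin-3A and 64% with the combination in p53+/+ cells, against 17.4% and 50.0% without it. It called 44.6% for Entinostat in p53+/+ cells, and 45.5% for Entinostat and 48.8% for the combination in p53-/- cells. The shares were 17.1% and 23.8% for the genotype differences under Nutlin-3A and the combination, and 52.4% for the combination against Nutlin-3A. Without a filter on low values more genes were tested, and the counts were 0 for Entinostat in p53+/+ cells, 2 for Entinostat and 3 for the combination in p53-/- cells, 4 and 8 for the genotype differences under Nutlin-3A and the combination, and 1 for the combination against Nutlin-3A. Shares of all tested genes without the filter were 16.1%, 16.3%, 18.9%, 3.54%, 2.9% and 23%, in the same order. For Entinostat in p53+/+ cells the count of repair genes was 1 with a pseudocount of 0.1 (FANCB) and 1 with quantile normalization. The latter was RAD51C, called higher (log2 change 0.22, adjusted p = 0.047). With quantile normalization RAD54B, FANCB and FANCG were lost (adjusted p of 0.11 to 0.13). All tested genes had shares of 27.5% with the pseudocount of 0.1 and 23.4% with quantile normalization, and the cause was not tested. With each library left out in turn, which leaves a lone library assumed to vary like the other groups, counts in p53+/+ cells ran from 12 to 23 for Nutlin-3A, 0 to 0 for Entinostat, 14 to 28 for the combination, 0 to 6 for the combination against Nutlin-3A and 10 to 27 against Entinostat. In p53-/- cells they ran from 0 to 2 for Entinostat and 0 to 3 for the combination. They ran from 2 to 17 and from 4 to 23 for the genotype differences under Nutlin-3A and the combination, and from 0 to 0 between genotypes with DMSO. The counts of 0 for Nutlin-3A in p53-/- cells, for the genotype difference under Entinostat and for the departure from additivity were 0 in every alternative tried. Scaling by the median of ratios or by quantiles moved the median of all genes by less than 0.1 on the log2 scale. The number of all tested genes called also changed when libraries were left out, so the ranges with a library left out do not describe the repair genes alone. With 2 libraries a group, changes of the size of the replicate differences cannot be shown.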

Other observations

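Some repair genes known as p53 targets rose in p53+/+ cells. Of 9 tested genes of such a list, 5 rose with Nutlin-3A and 5 with the combination, against 7.89% and 23.2% of all tested genes. With Nutlin-3A, RRM2B, a ribonucleotide reductase subunit, rose to a mean of 50.1 RPKM, against 13.1 RPKM with DMSO (log2 change 1.89), and GADD45A rose to 87.9 RPKM, against 25.2 RPKM (log2 change 1.78). DDB2 and XPC, which recognise ultraviolet damage, had log2 changes of 1.46 and 1.24. The list's 1 fall was FANCC, which is also among the 34 genes.

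With Entinostat 7 of the 71 other pathway genes rose (9.86%) and 4 fell (5.63%) in each genotype. These shares are under those of all tested genes, of which 15% rose and 13.3% fell in p53-/- cells and 15.1% rose and 12.4% fell in p53+/+ cells. FIGNL1, an ATPase of recombination, rose to a mean of 16.5 RPKM in p53-/- cells with Entinostat, against 8.76 RPKM with DMSO (log2 change 0.87). In p53+/+ cells it rose to 14.5 RPKM, against 6.86 RPKM with DMSO (log2 change 1.03). SLX4, the scaffold of structure-specific nucleases, rose as well, with log2 changes of 0.62 in p53-/- cells and 0.65 in p53+/+ cells.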
